A study of Bos taurus with 4 samples.

Results

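The EGF family genes were followed in bovine intestinal organoids, small intestine and muscle. The 10 genes encode the receptors EGFR, ERBB2 and ERBB3, the ligands EREG, AREG, TGFA, HBEGF, BTC and EGF, and the feedback inhibitor ERRFI1. They were chosen by name, and each has 1 row among the 29792 rows of the deposited counts. RNA came from Hanwoo cows, in 4 libraries without replicates: intestine, muscle, and intestinal organoids at passage 5 (P5) and at passage 10 (P10). The animals behind all 4 samples were older than 24 months. The organoids were grown from jejunal crypts of healthy animals, in Matrigel with IntestiCult medium, and both tissues were taken uncultured. The labels do not say whether the 4 samples came from the same animal, which muscle was taken or whether the intestine was used as whole wall, and the composition of the medium was not given in the sources used here. Since each group is 1 library, no difference could be set against a spread between replicates, and p-values are not given. A difference between P5 and P10 cannot be told apart from a difference between cultures. The organoid libraries are called P5 and P10 throughout.

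The EGF family works by binding of a secreted or membrane-anchored ligand to a receptor tyrosine kinase of the ERBB group. EGF, TGFA and AREG bind EGFR, whereas EREG, BTC and HBEGF bind both EGFR and ERBB4. ERBB3 binds some of the neuregulins and ERBB2 has no known ligand of its own, so both signal in pairs with other receptors. Active receptors switch on RAS and the kinase ERK, and ERRFI1 (also called MIG6) is induced by this pathway and binds the kinase domain of EGFR to shut it down. In the intestinal crypt this signal drives the division of stem and progenitor cells, and EGF is a usual additive of organoid media.

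The libraries held 12917720 to 17776273 reads, and 22200 rows had at least 1 read in any of them. The sequencing method, QuantSeq, reads the 3′ end of polyadenylated RNA. Levels are given as reads and as CPM, reads scaled to a common library total, with 95% exact Poisson intervals. The intervals hold counting error alone and leave out the choice of scaling, and reads copied by PCR are not separate molecules. The row of an 18S ribosomal RNA, RN18S1, took 23.6% of the muscle reads and between 0.264% and 4.81% elsewhere, which lowers the CPM of every other gene in muscle. Differences were taken as log2(value + 1) of quantile-normalised counts, the normalisation that the study's methods name, with a 95% counting interval. A gene could be called past 2-fold if it had at least 10 reads in 1 of the 2 libraries compared. Adding 1 makes differences that rest on few reads smaller, but the quantile normalisation itself could enlarge them. For EGF, P5 organoids against intestine, the difference was 3.02 on this scale and 1.74 to 1.95 with 4 other ways of scaling. For P10 organoids it was 1.06 on this scale and negative (-1.08 to -0.96) with the others. BTC at P5, with 20 reads, went the other way (-2.08 against -2.65 to -2.48). Differences on few reads are thus not lower bounds.

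The tissue labels were checked against marker genes. All 12 epithelial markers were counted in both organoid libraries, at 12823 CPM together in P5 and 10589 CPM in P10, against 3271 CPM in intestine and 28.2 CPM in muscle. Summed markers of stroma were at 6.69 CPM at P5, 4.51 CPM at P10 and 1288 CPM in intestine, and of the 10 stromal genes 3 and 7 had no read in P5 and P10. The immune markers showed the same picture, with 5.15 and 9.02 CPM at P5 and P10 and 6483 CPM in intestine. The 11 skeletal muscle markers were all counted in muscle, at 57805 CPM together, and at most 9.19 CPM in organoids. The intestine library thus held stromal and immune RNA that the organoid libraries held at or near 0, and in bulk RNA fewer cells of a type cannot be told apart from less RNA per cell.

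Among the ligands, AREG and TGFA were higher in both organoid libraries than in intestine, EREG was at least 2-fold higher at P5 and within 2-fold at P10, and BTC was lower at P5. EREG, epiregulin, had 360 reads at P5, 92 at P10, 74 in intestine and 7 in muscle. P5 organoids stood alone at the top with 26.5 CPM (23.8 to 29.4), whereas P10 organoids (5.19 CPM, 4.18 to 6.36) and intestine (4.16 CPM, 3.27 to 5.23) did not differ beyond counting error per library total. The log2 difference from intestine was 3.00 (2.59 to 3.44) at P5 and 0.80 (0.33 to 1.26) at P10. Over 5 ways of scaling the libraries the first ran from 2.48 to 3.00 and the second from 0.06 to 0.80.

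AREG, amphiregulin, followed the same order, with 331 reads at P5, 127 at P10, 53 in intestine and 11 in muscle. Per library total each step of this order was larger than counting error, with 2.40-fold (1.73 to 3.38) between P10 organoids and intestine. The step from intestine to muscle was within counting error after quantile normalisation (log2 difference 0.27, -0.81 to 1.28). The log2 difference from intestine was 3.43 (2.98 to 3.90) at P5 and 1.70 (1.23 to 2.19) at P10. Over the 5 scalings the first ran from 2.83 to 3.43. With upper-quartile scaling the second was 0.99, just short of 2-fold.

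TGFA, transforming growth factor alpha, showed another order, with 350 reads at P10, 180 at P5, 89 in intestine and 8 in muscle. P10 organoids were at 19.7 CPM (17.7 to 21.9) and P5 organoids at 13.2 CPM (11.4 to 15.3), so that TGFA was the only one of these 3 ligands with more reads per library in P10. The log2 difference from intestine was 1.74 (1.32 to 2.18) at P5 and 2.16 (1.76 to 2.57) at P10. Over the 5 scalings the first ran from 1.22 to 1.74 and the second from 1.71 to 2.16.

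BTC, betacellulin, was highest in muscle. It had 562 reads in muscle, 152 in intestine, 109 at P10 and 20 at P5, or 43.5, 8.55, 6.15 and 1.47 CPM. All 3 steps between neighbours exceeded counting error per library total. Compared with intestine, BTC differed by a log2 value of -2.08 (-2.84 to -1.44) at P5 and -0.33 (-0.69 to 0.06) at P10.

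HBEGF and EGF rested on few reads. HBEGF, heparin-binding EGF-like growth factor, had 21 reads in muscle, 20 at P5 and none in intestine or P10 organoids, where the 3 reads taken as the limit of a 0 equal 0.169 CPM in either library and the exact Poisson interval reaches 0.208 CPM. The gene annotation behind the counts is not given in the sources used here, and whether the 0 rests on the annotated 3′ end was not tested. Against those 3 reads, and without the counting error of its own 20, HBEGF at P5 was at least 8.71-fold higher than intestine per library total and at least 8.69-fold higher than P10 organoids. The exact 95% interval of the ratio to intestine began at 6.45. On the normalised scale the bound against P10 organoids was 4.04-fold. EGF itself had 17 reads at P5, 5 in intestine and 2 each in muscle and P10 organoids. Its ratio per library total between P5 organoids and intestine was 4.44 (1.57 to 15.4), and intestine, muscle and P10 organoids did not differ beyond counting error. No library thus held more than 17 reads of EGF.

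**Figure D1:**
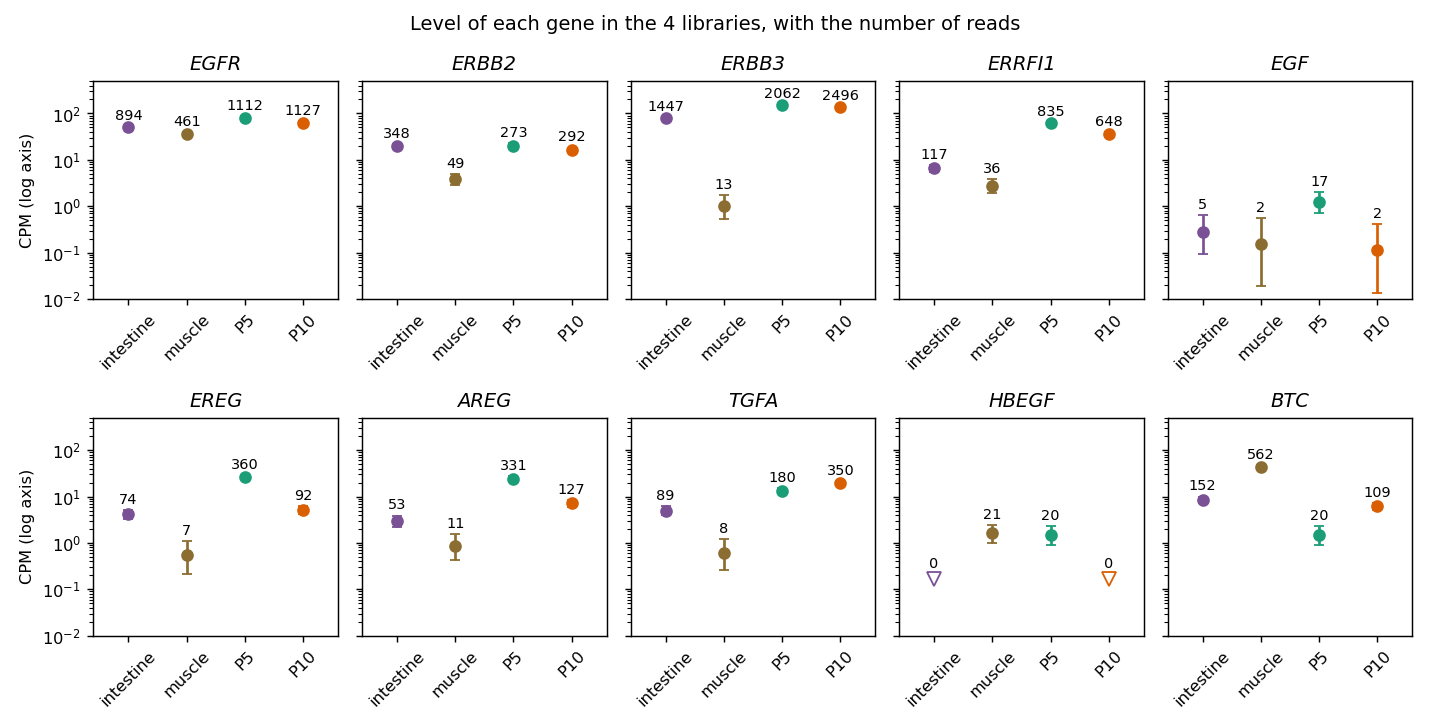
Levels of the 10 genes in intestine, muscle, P5 and P10 organoids as CPM on a log axis, 1 point per library, with 95% Poisson intervals where they exceed the point and the number of reads above it. Open triangles mark libraries with no read, drawn at the 0.169 CPM that 3 reads equal. EREG and AREG peak at P5, TGFA at P10 and BTC in muscle.

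The make-up of the ligand reads needs no scaling between libraries, since each share is taken within 1 library. How fully the 3′ end of each gene was counted is not known, so each share is compared between libraries and not with the share of another gene. EREG and AREG together held 74.5% (71.5 to 77.2, exact binomial interval) of the 928 ligand reads at P5 and 32.2% (28.7 to 35.9) of the 680 at P10, close to the 34.0% (29.2 to 39.1) of the 373 in intestine. TGFA held 19.4% (16.9 to 22.1) at P5, 51.5% (47.6 to 55.3) at P10 and 23.9% (19.6 to 28.5) in intestine. BTC held 2.16% (1.32 to 3.31) at P5, 109 of the 680 reads (13.4% to 19.0%) at P10, 40.8% (35.7 to 45.9) in intestine and 92.0% (89.5 to 94.0) of the 611 ligand reads in muscle. The shares of EREG and AREG were thus larger at P5 than at P10 and those of TGFA and BTC smaller, and for each the intervals at P5 and P10 did not overlap. Since the shares of a library add up to the whole, these differences depend on one another and are not separate results. The normalised level of TGFA differed between P10 and P5 by a log2 value of 0.42 only.

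**Figure D2:**
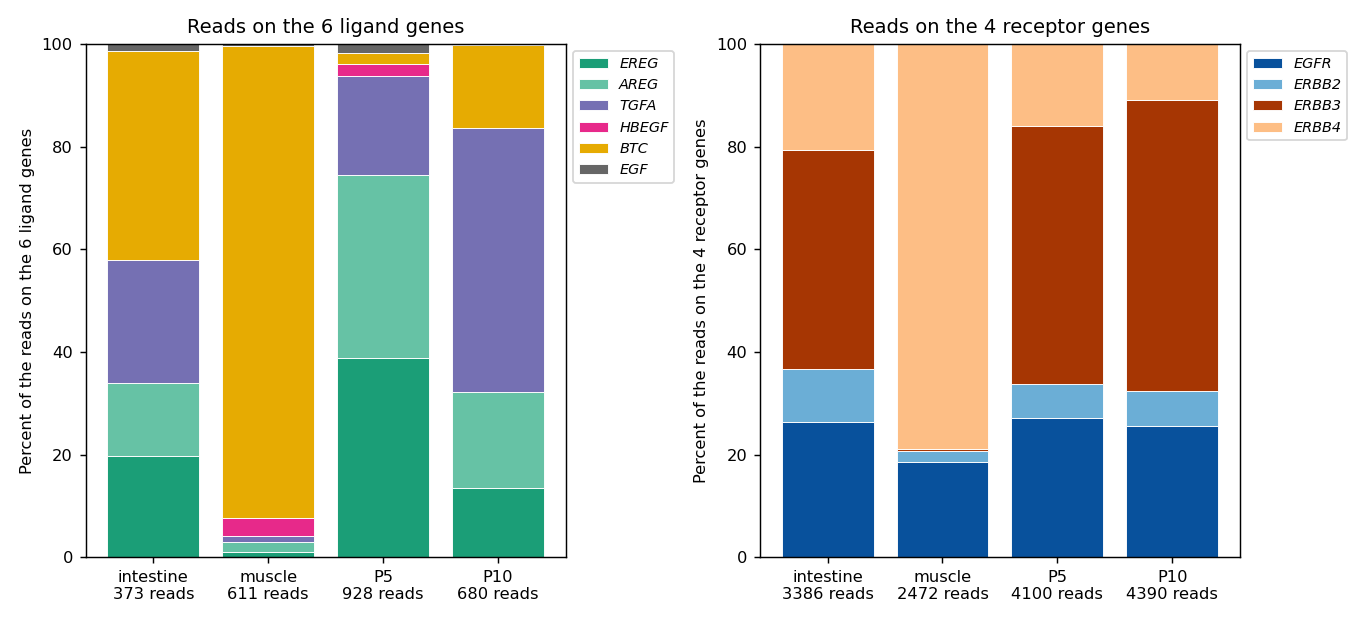
Shares of the reads on the 6 ligand genes (left) and on 4 receptor genes (right) within each library, in percent, with the number of reads under each bar. EREG and AREG make up 74.5% of the ligand reads at P5 and 32.2% at P10, and ERBB4 makes up 78.8% of the receptor reads in muscle.

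The 3 receptors were within 2-fold of intestine in both organoid libraries. ERBB3 had 2062 reads at P5, 2496 at P10, 1447 in intestine and 13 in muscle, or 152, 141, 81.4 and 1.01 CPM. It was the receptor with the largest difference from muscle, with log2 differences of 6.05 (5.11 to 6.95) at P5, 5.91 (4.97 to 6.81) at P10 and 5.36 (4.42 to 6.27) in intestine. The muscle reads were 0.898% of the intestine reads. Among the 12 epithelial markers this share ran from 0% to 6.67%, with 6 markers at 0 in muscle, and whether the ERBB3 reads in muscle came from muscle cells was not tested.

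EGFR was counted in all 4 libraries, with 1112 reads at P5, 1127 at P10, 894 in intestine and 461 in muscle. The log2 difference from intestine was 0.49 (0.36 to 0.61) at P5 and 0.07 (-0.07 to 0.19) at P10, within 2-fold in both. Against muscle the direction depended on the scaling: the difference of P5 organoids was 0.09 (-0.05 to 0.23) with quantile normalisation and ran from -0.13 to 1.19 over the 5 scalings. No order of muscle and the other samples can be given for EGFR.

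ERBB2 had 273 reads at P5, 292 at P10, 348 in intestine and 49 in muscle. P5 organoids and intestine did not differ beyond counting error (log2 difference -0.05, -0.29 to 0.19), and P10 organoids were slightly under intestine (-0.46, -0.69 to -0.22). Intestine was 1.04 (0.62 to 1.51) above muscle. P5 organoids were 0.99 (0.57 to 1.46) above muscle, which lies at the 2-fold limit. The difference of ERBB2 was at most 2.38 over the 5 scalings, and that of ERBB3 at least 5.87, for P5 organoids against muscle.

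The fourth receptor, ERBB4, is no member of the list but binds EREG, BTC, HBEGF and neuregulins, and it completes the picture in muscle. It had 1949 reads in muscle, 697 in intestine, 653 at P5 and 475 at P10. In muscle it took 78.8% (77.2 to 80.4) of the reads on the 4 receptor genes, against 20.6% (19.2 to 22.0) in intestine, 15.9% (14.8 to 17.1) at P5 and 10.8% (9.92 to 11.8) at P10. ERBB3 took 50.3% (48.8 to 51.8) at P5 and 56.9% (55.4 to 58.3) at P10. The tissue with the most BTC was therefore also the one with the most ERBB4.

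ERRFI1 had 835 reads at P5, 648 at P10, 117 in intestine and 36 in muscle. Both organoid libraries were far above both tissues, at 61.4 CPM (57.3 to 65.7) and 36.5 CPM (33.8 to 39.5) against 6.58 CPM (5.44 to 7.89) in intestine. The log2 difference from intestine was 3.38 (3.02 to 3.74) at P5 and 2.55 (2.18 to 2.91) at P10. Intestine and muscle differed by -0.38 (-0.96 to 0.29) with quantile normalisation and by as much as 1.22 with another scaling, so their order is uncertain.

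Counted together, 6 of the 10 genes were at least 2-fold higher at P5 than in intestine, where 24.9% of all 17783 rows with enough reads were, and 1 gene was at least 2-fold lower, where 22.8% of all rows were. The 6 genes were EREG, AREG, TGFA, HBEGF, EGF and ERRFI1, and the gene lower was BTC. HBEGF and EGF entered this count only through their reads at P5 and so had to differ. With at least 50 reads asked for, 4 of 8 genes were higher and 1 was lower. The shares and the median of all rows rest on at least 10 reads and were not taken at this stricter minimum. The median difference was 2.37 over the 10 genes, 1.21 over the 8 genes with at least 50 reads and 0.11 over all rows. In P10 organoids 8 of the 10 genes had enough reads, all but HBEGF and EGF. These are the same 8 genes that had at least 50 reads at P5 or in intestine. AREG, TGFA and ERRFI1 exceeded intestine at least 2-fold (3 of 8, against 28.0% of all rows), none was at least 2-fold lower (against 26.1%), and the median was 0.67. Both comparisons use the same intestine library.

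Markers of epithelium moved with these differences. The 12 epithelial markers had a median log2 difference from intestine of 2.53 at P5 and 2.14 at P10. Single markers ran from 0.84 to 6.36 at P5 and from -1.17 to 5.13 at P10, so each offset depends on the markers chosen. Set against these medians, EREG was 0.47 higher at P5, AREG 0.90 and ERRFI1 0.85, all under 2-fold, and TGFA differed by -0.79. EGFR, ERBB2 and ERBB3 lay at -2.04, -2.58 and -1.85, under the epithelial markers. On this footing 1 member, HBEGF, was at least 2-fold higher at P5 and 4 were at least 2-fold lower, and at P10 none was higher and 5 were lower. The median of all rows was 0.11 in both comparisons, so most rows also lay at least 2-fold under the epithelial medians. Being lower on this footing is thus not particular to these genes. How much of each difference comes from the share of epithelium was not tested.

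**Figure D3:**
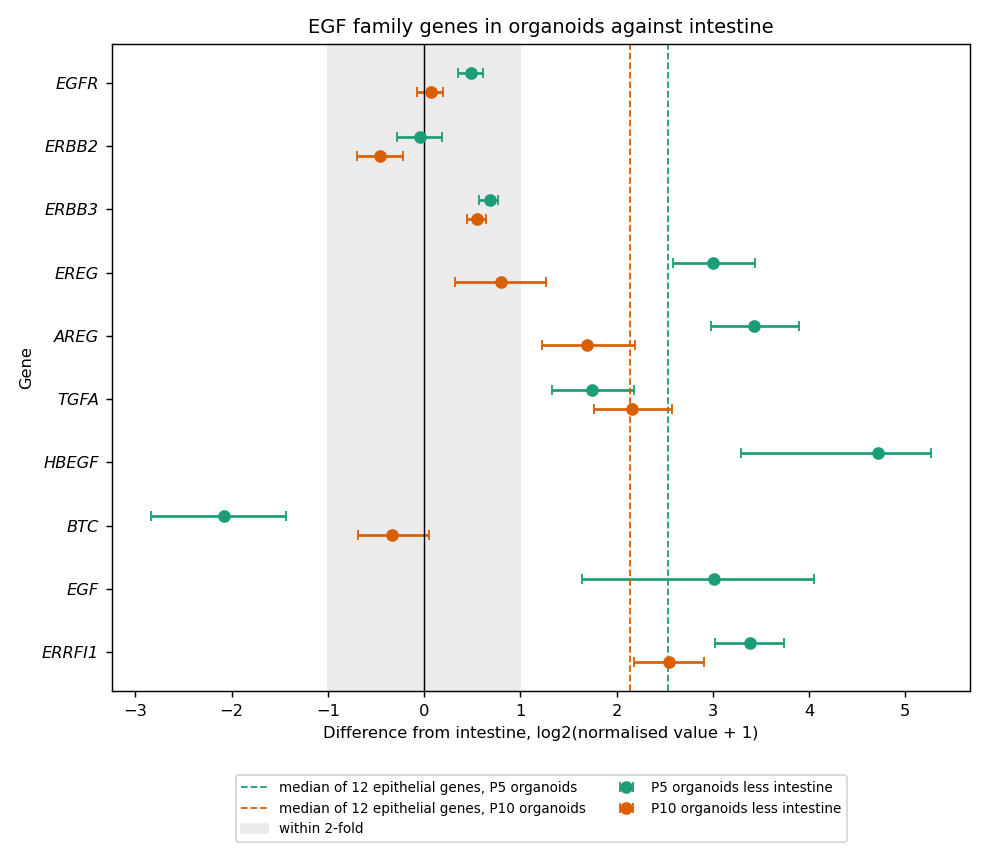
Differences from intestine on the log2(normalised value + 1) scale for P5 (green) and P10 (orange) organoids, with 95% counting intervals, the range within 2-fold in grey and the medians of 12 epithelial genes (2.53 and 2.14) as dashed lines. HBEGF and EGF are drawn for P5 only, and the point of HBEGF depends on the added 1 because intestine had no read. The 3 receptors lie within 2-fold of intestine, and EREG, AREG and ERRFI1 lie above the dashed line at P5.

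Between the passages, the ligands differed in opposite directions, and the receptors differed by less than 2-fold. EREG was lower at P10 than at P5 by a log2 difference of -2.21 (-2.51 to -1.94) and AREG by -1.73 (-1.98 to -1.48). BTC was higher by 1.75 (1.15 to 2.49) and TGFA by 0.42 (0.17 to 0.67). EGF, with 2 reads in P10, had a ratio of 0.0902 (0.0101 to 0.380) per library total. The 3 receptors differed by -0.42 (EGFR), -0.41 (ERBB2) and -0.14 (ERBB3), and ERRFI1 by -0.84 (-0.98 to -0.70). Thus 4 of the 10 genes (EREG, AREG, HBEGF and EGF) were at least 2-fold lower at P10, against 16.6% of all rows, and 1 of the 10 (BTC) at least 2-fold higher, against 16.1%. HBEGF and EGF entered the count only through P5, where they were high, and with at least 50 reads asked for 2 of 8 genes were lower. No share of all rows was taken at this stricter minimum. The direction of each gene was the same under all 5 scalings, and the epithelial markers had a median difference of -0.52 between the same libraries.

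Against muscle, 6 of 10 genes were at least 2-fold higher at P5 (33.5% of all rows were) and 2 at least 2-fold lower (27.3%). In P10 organoids, with 9 genes counted, 5 were higher (against 35.2%) and 2 lower (28.5%). In intestine, also with 9 genes, 4 were higher (32.3%) and 2 lower (27.0%). ERBB3, EREG and TGFA were higher in all 3 comparisons, AREG and ERRFI1 in both organoid libraries, EGF at P5 and ERBB2 in intestine. EREG was 4.41 (3.34 to 5.47) above muscle at P5, 2.21 (1.11 to 3.27) at P10 and 1.41 (0.27 to 2.52) in intestine, and TGFA 3.32, 3.73 and 1.57. AREG was 3.70 and 1.97 above muscle at P5 and P10, and its 0.27 (-0.81 to 1.28) in intestine was within counting error. BTC and HBEGF were lower in all 3. HBEGF passed the minimum of reads only through muscle in the counts of P10 organoids and intestine, and EGF only through P5. With at least 50 reads asked for, 1 gene was lower in each comparison, and no share of all rows was taken at that minimum. The log2 differences of BTC were -5.52 at P5, -3.77 at P10 and -3.44 in intestine, and HBEGF had no read in the last 2 against 21 in muscle. HBEGF counted as lower at P5 (-1.07, -2.06 to -0.07) although the reads were 20 and 21, a call that did not hold per library total (ratio 0.905, 0.465 to 1.75).

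Of the neuregulins, NRG1 was lower in organoids than in intestine and NRG3 was slightly higher. NRG1 had 604 reads in intestine, 27 at P5, 24 at P10 and 4 in muscle, and was lower than intestine by log2 differences of -3.91 (-4.49 to -3.43) at P5 and -4.29 (-4.80 to -3.81) at P10. Markers of other cell types were lower at P5 too, with medians of -2.99 for enteric neurons and glia, -3.75 for endothelium, -6.68 for stroma, -8.62 for smooth muscle and -8.87 for immune cells. Their part in the difference of NRG1 was not tested. NRG3 had 258 and 270 reads at P5 and P10, 168 in intestine and 54 in muscle, with log2 differences from intestine of 1.06 (0.76 to 1.40) at P5, under 2-fold with TMM and upper-quartile scaling, and 0.62 (0.33 to 0.95) at P10. NRG2 had 6 to 27 reads in each library, and EPGN, epigen, had none in any. NRG4 is not analysed here.

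Of the 8 genes for ligand shedding, the release of ligands from the cell surface, 2 were at least 2-fold higher at P5 than in intestine and none lower. The share higher is near the 24.9% of all rows, so the list as a whole did not stand out by this count. RHBDF2, which carries the sheddase ADAM17 to the cell surface, had the largest difference, 2.35 (1.95 to 2.77), with 276 reads against 88, and the other gene higher was ADAM9, a related protease, at 1.30 (0.96 to 1.69). FRMD8, a partner of RHBDF2, had the smallest, 0.17 (-0.08 to 0.44), and was 1.31 (1.10 to 1.54) above intestine at P10. ADAM17 itself was within 2-fold of intestine, at 0.30 (0.14 to 0.48) and 0.34 (0.18 to 0.50).

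Of the 16 genes for receptor adaptors and the RAS to ERK chain, 13 differed less than 2-fold between intestine and P5 organoids, and the median was 0.05. At least 2-fold higher at P5 were 2 and lower 1, where 24.9% and 22.8% of all rows were. The adaptor SHC1 had the largest difference, 1.12 (0.94 to 1.30), and the adaptor GAB1 the smallest, -1.14 (-1.35 to -0.95). MAPK3, the gene of the kinase ERK1, was also past 2-fold, at 1.05 (0.94 to 1.18). These calls depended on the scaling. With library totals, with or without RN18S1, 3 genes of the list were at least 2-fold higher at P5 and 0 were lower. At P10, SHC1 lay at 0.98 (0.81 to 1.15) and GAB1 at -0.20 (-0.36 to -0.05). There 0 genes of the list were at least 2-fold higher and 1 was lower (28.0% and 26.1% of all rows). ADAM9 and MAPK3 were named after their values were seen.

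Of the 16 genes induced by ERK and feedback inhibitors, most were higher in organoids than in intestine. At P5, 11 exceeded intestine at least 2-fold and 1 was lower, with a median of 1.82 against 0.11 over all rows, of which 24.9% were higher and 22.8% lower. In P10 organoids 10 were higher and 1 lower (28.0% and 26.1% of all rows), with a median of 1.66. The medians of the 12 epithelial markers, 2.53 and 2.14, were above both, so relative to epithelium the median of the list was not raised. PHLDA1, also used as a crypt stem cell marker, had the largest difference at P5 among genes with at least 50 reads, 4.15 (3.82 to 4.50). SPRY1, an inhibitor of the RAS pathway, had the smallest, -0.28 (-0.51 to -0.08). Further genes were picked after their values were seen. The transcription factors ETV4 and ETV5 had 565 and 123 reads at P5, 2021 and 557 at P10, and 61 and 40 in intestine. The ERK phosphatases DUSP5 and DUSP6 were 3.16 and 1.91 above intestine at P5, and 4.07 and 1.14 at P10. The single genes lower were DUSP4, a phosphatase with 15 reads in intestine and 0 at P5, and EGR1, an immediate early gene with 14 reads in intestine and 0 at P10. Both entered the count only through their reads in intestine and so had to differ. Between the passages, ETV4 and ETV5 were 1.42 (1.29 to 1.56) and 1.59 (1.32 to 1.88) higher at P10, opposite to ERRFI1. Under the other 4 scalings 10 of the 16 genes were higher at P5 and 2 were lower.

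**Figure D4:**
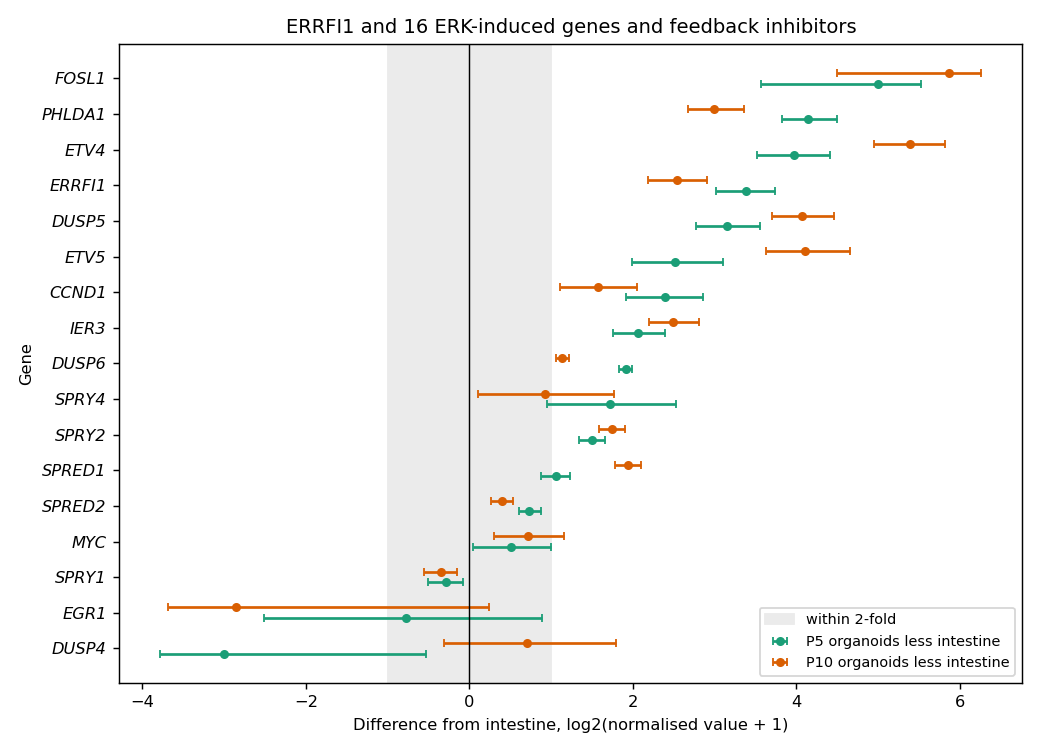
Differences from intestine on the log2(normalised value + 1) scale for ERRFI1 and 16 genes induced by ERK or inhibiting the pathway, in P5 (green) and P10 (orange) organoids, with 95% counting intervals and the range within 2-fold in grey. Of the 16 genes, 11 lie at least 2-fold above intestine at P5 and 10 at P10, and ETV4 and ETV5 lie further right in P10.

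Of the 10 other inhibitors of ERBB receptors, 1 was at least 2-fold higher at P5 than in intestine and 2 were lower, where 24.9% and 22.8% of all rows were. SOCS4 was 2.97 (2.27 to 3.76) higher, on 86 and 22 reads, and LRIG3 was lower by a log2 difference of -1.03 (-1.28 to -0.79). The other gene lower, CBLB, a ubiquitin ligase, was named after its value was seen and lay at -1.01 (-1.26 to -0.76), also near the 2-fold limit. Under 2 scalings by library totals no gene of this list was lower past 2-fold. In P10 organoids 3 of the 10 were higher and 3 lower (28.0% and 26.1% of all rows), with SOCS4 at 2.70 (2.01 to 3.48) and LRIG3 at -1.83 (-2.08 to -1.59).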

How the data were processed

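RNA was prepared with the QuantSeq 3′ kit and sequenced on an Illumina NextSeq. The authors used Bowtie2 for alignment and Bedtools for counting, with multiply aligned reads included, and deposited raw read counts per gene symbol. Versions, genome build and annotation are not given in the sources used here. Reads shared by near-identical genes were not separated. Each count file holds 1 library, mapped to its group by its title.

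Quantile normalisation, which the study's methods name, was run with limma 3.58.1 (ties averaged) on the 22200 rows with at least 1 read, and values were used as log2(value + 1). Exact Poisson bounds of each count were carried through the normalisation and combined into the interval of a difference. Ratios of CPM have exact conditional binomial intervals. A count of 0 was bounded at 3 reads. The steps were tested on simulated data. No test was run, since each group has 1 library.

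Alternatives were library totals with and without RN18S1, edgeR 4.0.16 TMM and upper-quartile factors, pseudocounts of 0.1 and 5, a minimum of 10 reads in any library, rows summed by symbol, at least 50 reads for a count, and differences relative to 12 epithelial genes. The 10 genes, the gene lists and the alternatives were chosen with earlier results of these data known. By rule, all 10 members, the rest of the family and, from each other list, the largest and smallest difference between P5 organoids and intestine (at least 50 reads) were named. All 10 symbols are current in RefSeq (ARS-UCD2.0). Other tools were R 4.3.3, scipy 1.17.1, pandas 2.3.3, numpy 2.4.6 and matplotlib 3.10.9 under Python 3.11.15. The result of 1 listed gene is not reported here.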

Additional observations from a re-analysis of the deposited data

How the results depend on the processing

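The scaling of the libraries left the counts of genes past 2-fold between organoids and intestine, and between the passages, within 1.5 times of those reported. Relative to the 12 epithelial genes, 1 gene was higher and 4 were lower at P5 than in intestine, and 0 were higher and 5 lower (5 apart in all) at P10. Most of all rows also lay at least 2-fold lower by the same subtraction. TGFA at P5 reversed to -0.79 and AREG at P10 to -0.45 on that footing, which subtracts the epithelial median from each difference. Against muscle, HBEGF decided the genes lower at P5, of which 1 in place of 2 was left with library totals, with totals without RN18S1 and with a pseudocount of 5. With at least 50 reads asked for, 1 gene was lower than muscle in each of the 3 other libraries, and between the passages 3 genes were apart and 2 lower in P10, since genes with few reads leave the count. The number of genes at least 2-fold higher than muscle ran up to 8 at P5 with library totals, where the median of all rows was 1.29 above muscle, against 0.13 with quantile normalisation. With totals without RN18S1 that median was still 0.97 above muscle. Of all rows past 2-fold between P5 organoids and intestine, 52.3% were higher with quantile normalisation and 40.5% with TMM, between P10 organoids and intestine 51.7% and 41.0%, and against muscle 55.1% and 76.4% at P5, 55.2% and 75.5% at P10 and 54.5% and 83.3% in intestine, the second value with library totals. Single reads carried unequal weight in quantile normalisation (a log2 value of 0.32 in intestine and 2.09 in muscle and P10 organoids), which limits EGF and HBEGF most. No paired analysis was possible because each group has 1 library.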

Other observations

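By RefSeq (ARS-UCD2.0), EPGN, EREG, AREG and BTC follow one another as 4 consecutive protein-coding genes, all of them ligands of EGFR. In these libraries the 2 middle genes, EREG and AREG, had their most reads at P5, whereas BTC, next to AREG, had its fewest there and EPGN had no read. Of the genes on either side of the cluster, PARM1 also had its most reads at P5, and MTHFD2L had its most at P10. MTHFD2L, before EPGN, had 271 reads in intestine, 105 in muscle and 234 and 478 at P5 and P10. PARM1, after BTC, had 370, 15, 401 and 108.

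The rows whose pattern over the 4 libraries lay nearest to EGFR, by Euclidean distance of centred log2 values among 15051 rows with at least 50 reads in any library, were IKBIP (0.0763), PEX19 (0.0781) and SCAPER (0.0858), and 661 rows lay within 0.5 of it. The rows nearest to TGFA, the ligand with the most reads over both organoid libraries, were ASPHD2 (0.123), PGBD2 (0.137) and GGH (0.178), and 52 rows lay within 0.5. The distances rest on 4 libraries and describe likeness of pattern only.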
